A study of Homo sapiens with 8 samples.

Results

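The genes described are 51 that carry out or supply DNA replication: the origin recognition complex, the licensing factors, the MCM helicase with CDC45 and GINS, the sliding clamp and its loader, the 3 replicative polymerases, the enzymes of the lagging strand, RPA, the enzymes that make deoxynucleotides, and the factors that supply and assemble histones. They were picked by gene symbol from a list of names drawn up with earlier results of these data known, with no threshold on measured values, out of 19158 genes in each file, and all 51 passed the filter on low values. RNA was measured in A549, a human lung adenocarcinoma epithelial cell line, in wells that received no treatment (4 libraries, replicates 1, 3, 4 and 5) or 1 µM dexamethasone for 48 h (4 libraries, with the same numbers). Dexamethasone is a synthetic agonist of the glucocorticoid receptor. All 8 libraries are labelled wild type and batch 1, the medium held 5% serum, and no vehicle is named for the untreated wells. The study question, as far as the labels give it, was what glucocorticoid exposure does to RNA and protein in these cells, and the proteins were not analysed here.

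A cell copies its genome once per division. In G1 the origin recognition complex, CDC6 and CDT1 load the ring of MCM2 to MCM7 onto DNA, a step called licensing, and geminin blocks CDT1 afterwards so that no origin is licensed again in the same cycle. In S phase CDC45 and GINS join MCM to form the active helicase, PCNA holds the polymerases on the template, and many of these genes are transcribed from E2F-driven promoters at the G1 to S transition. In bulk RNA, fewer cells in S phase and less of a transcript per cell cannot be told apart.

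The files were read as FPKM, fragments per length of transcript and depth of library, so levels of different genes are compared per length. Each library summed to 338989 to 373855 FPKM, and the steps between low values corresponded to about 24980000 to 28660000 fragments per library, or about 49970000 to 57300000 under a doubled solution that the values describe about as well. FKBP5 and TSC22D3, direct targets of the glucocorticoid receptor, checked the labels: FKBP5 was at 5.86, 6.76, 7.3 and 3.28 FPKM in the untreated libraries and 124.6, 166.4, 164.8 and 87.3 FPKM in the dexamethasone libraries (log2 change 4.31), and TSC22D3 rose by 3.85 on the log2 scale (limma, adjusted p = 1.41e-06 and 4.39e-07). Values of a group are listed in the order of replicates 1, 3, 4 and 5 throughout. Of 5 epithelial markers 4 were at 1 FPKM or more in at least 4 libraries, EPCAM stayed between 0.14 and 0.765 FPKM, and the list summed, mostly from KRT8 and KRT18, to 1912 to 3459 FPKM in untreated and 2578 to 3312 FPKM in dexamethasone libraries. Within it CDH1 rose (from a mean of 6.8 to 18.2 FPKM, limma adjusted p = 8.69e-05) and KRT19 fell (from 155.8 to 54.7 FPKM, limma adjusted p = 0.00111). PTPRC and CD3E were listed at 0 in all 8 libraries, the endothelial list summed to at most 0.176 FPKM, and the fibroblast list summed to 1.82 to 2.3 FPKM untreated and 0.598 to 0.754 FPKM after dexamethasone, with COL1A1 at a mean of 2.03 to 0.367 FPKM and DCN listed at 0 in the untreated and at 0.178, 0.32, 0.289 and 0.355 FPKM in the dexamethasone libraries. The part of these levels in the results was not tested. The libraries numbered 5 stood apart from the others in both groups, as described with the GC content of the genes.

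RNA of most of the replication machinery was lower after dexamethasone. Of the 51 genes 43 fell, 0 rose and 8 did not pass the test (limma, two-sided, Benjamini-Hochberg adjusted p under 0.05 over 12161 genes), which is 84.3% lower beside 15.3% of all genes tested (11.9% rose and 27.2% passed in either direction), and none of the 8 that did not pass was at an unadjusted p under 0.05. The median log2 change of the 51 was -1.05, from -1.83 for CDT1 to 0.54 for ORC3, where the median of all genes tested was -0.004. In 40 of the 51 all 4 dexamethasone libraries lay below all 4 untreated libraries after scaling, beside 18.1% of all genes tested, and 29 passed the test and fell by at least 2-fold on the scale of log2(FPKM + 1), beside 4.1%. Summed over the 51 genes the level was 1718, 1779, 1814 and 1743 FPKM in the 4 untreated libraries and 797.4, 813.6, 872.9 and 844.0 FPKM in the dexamethasone replicates in the same order, so the dexamethasone libraries held 47.2% of the untreated level and the groups were far apart. The p-values measure the spread between wells of 1 line.

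**Figure D1:**
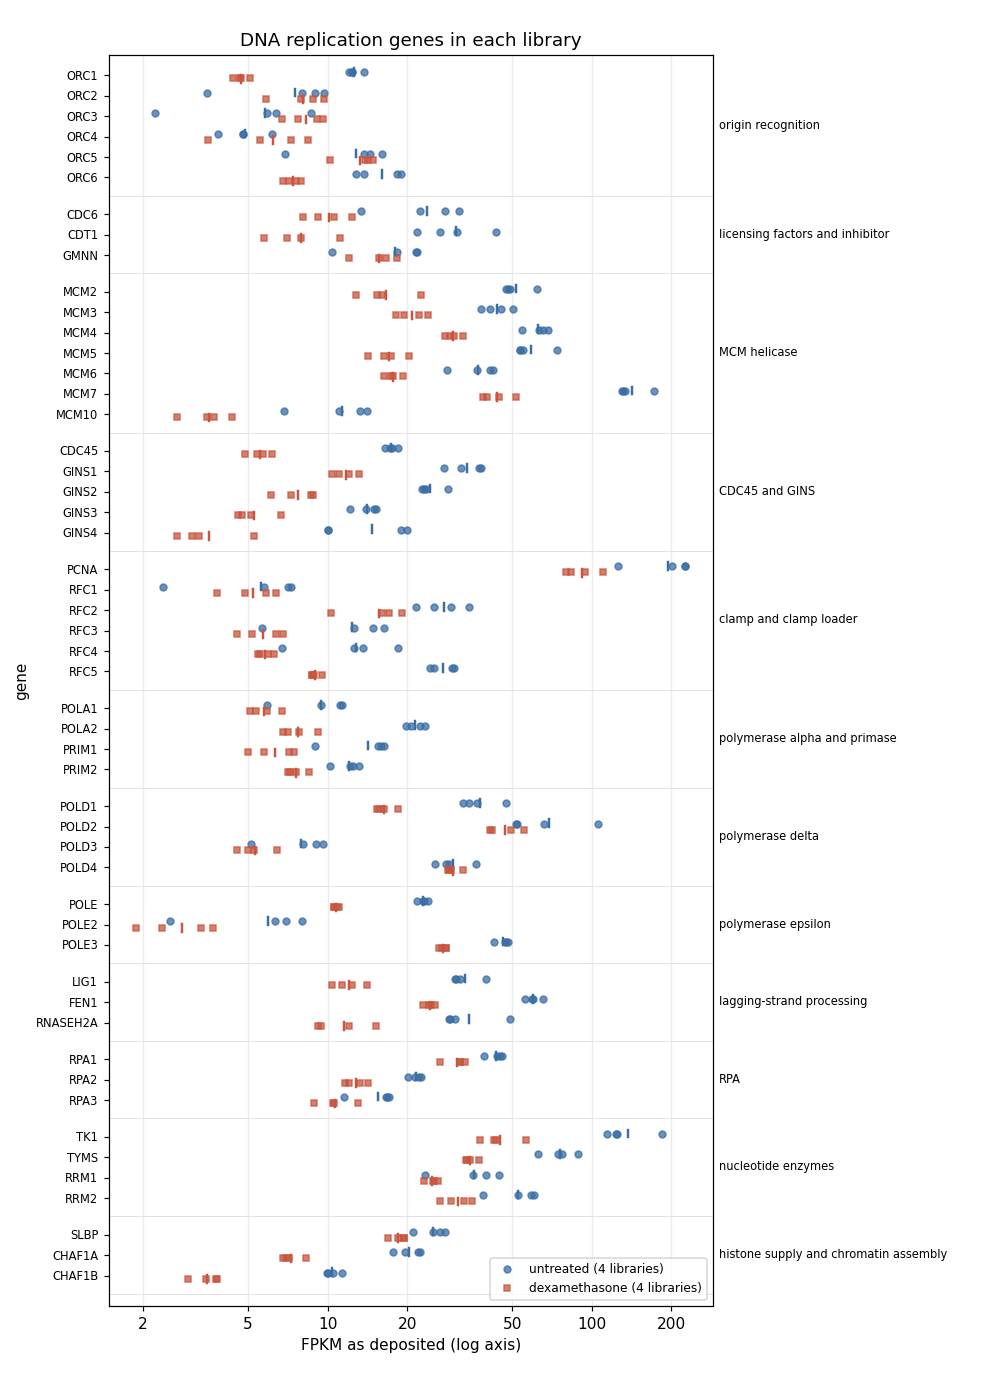
FPKM of each of the 51 genes in every library, on a log axis, with genes grouped by their machine and points coloured by treatment. All dexamethasone points lie below all untreated points for 37 of the 51 genes as deposited. The points of ORC2, ORC3, ORC4, ORC5, GMNN, RFC1 and POLD4 mix, and those of RFC3, POLA1, POLD2, POLD3, POLE2, RPA3 and RRM1 overlap.

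The helicase and its activators had the lowest summed levels relative to untreated. CDC45 and the 4 GINS genes were at 32.3% of untreated, the MCM genes at 36.7%, and the lagging-strand enzymes at 37.5%. The nucleotide enzymes were at 45.2%, the licensing factors with geminin at 46.6%, the clamp with its loader at 47.6%, polymerase alpha with primase at 47.9%, the histone and chromatin factors at 52.4% and polymerase epsilon at 54.6%. RPA at 67.6%, polymerase delta at 68.3% and origin recognition at 80.5% kept the most. These shares are of deposited FPKM and are given as a description, since a sum is led by its most abundant gene.

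**Figure D2:**
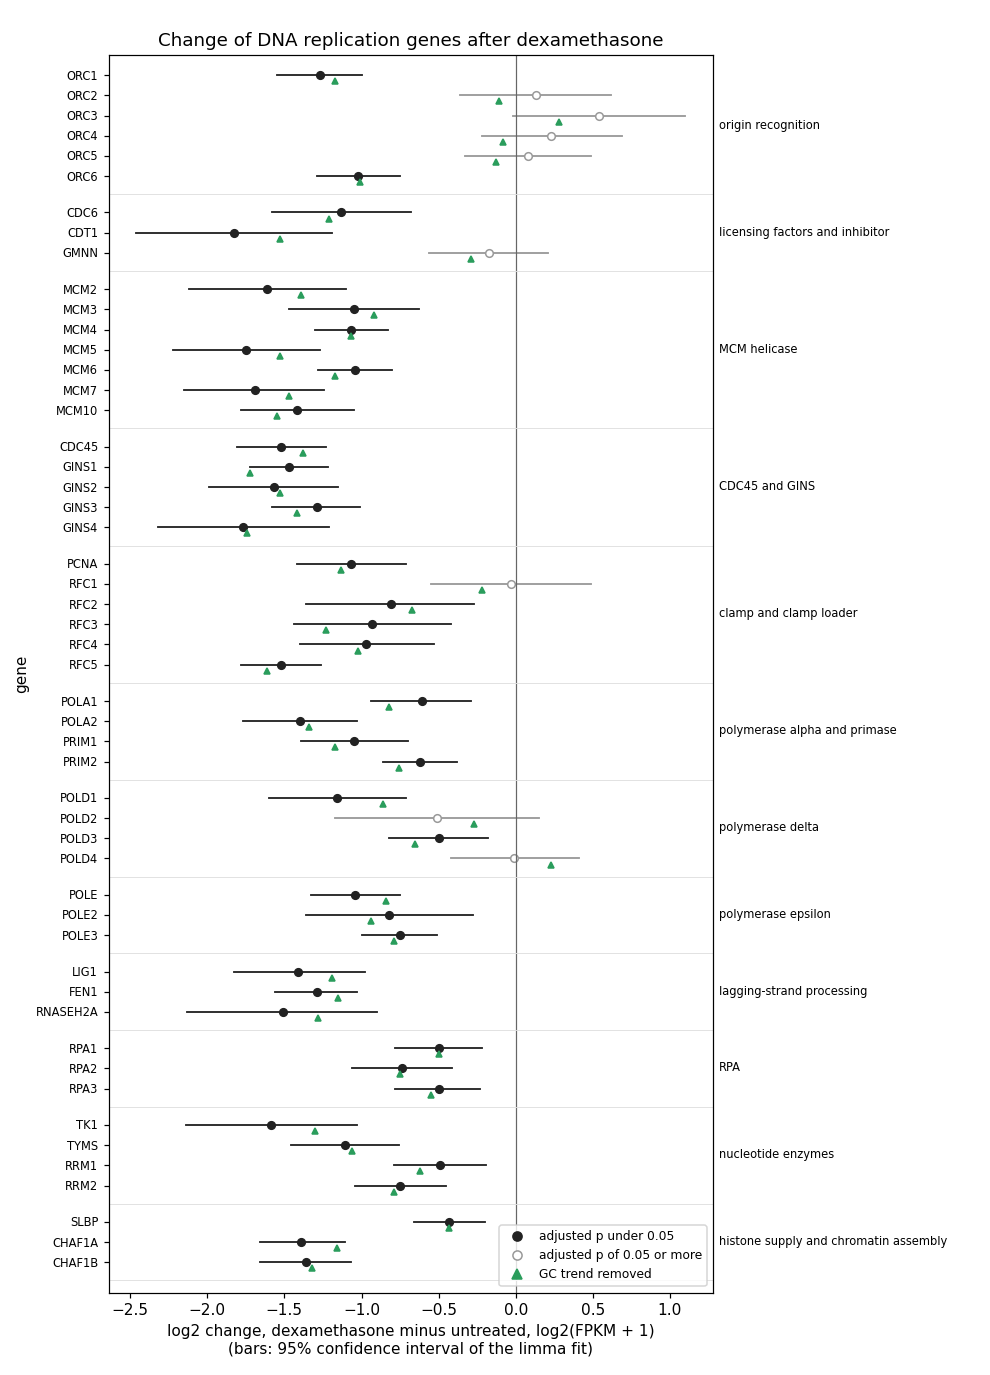
Log2 change (dexamethasone minus untreated) of each of the 51 genes with its 95% confidence interval from limma, grouped by machine. Filled points passed the test, triangles show the change with the GC trend removed, and the 8 genes that did not pass have intervals that cross 0.

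Origin recognition divided by subunit. ORC1, the ATPase subunit that binds chromatin in G1 and is degraded in S phase, was at 12, 12.4, 13.7 and 12.4 FPKM in the 4 untreated libraries and at 4.37, 5.09, 4.69 and 4.65 FPKM in the dexamethasone replicates (ENSG00000085840, chromosome 1, 52372829 to 52404459, GRCh38 as all coordinates here). No dexamethasone library came near an untreated one, and ORC1 fell to 37.3% of untreated (log2 change -1.27, SE 0.124, adjusted p = 7.28e-05). ORC6, the subunit most loosely held by the complex, fell from 13.7, 18.3, 19.0 and 12.8 to 7.58, 7.17, 7.94 and 6.79 FPKM (log2 change -1.02, SE 0.121, adjusted p = 0.000247). The core subunits ORC2, ORC3, ORC4 and ORC5 did not pass the test. ORC2 was at 7.97, 9.7, 8.93 and 3.51 FPKM untreated and 9.71, 7.91, 8.77 and 5.86 FPKM after dexamethasone, with untreated replicate 5 the lowest of the 8 and the other libraries mixed (log2 change 0.13, 95% interval -0.36 to 0.62, adjusted p = 0.678). The intervals of the others were -0.02 to 1.10 for ORC3, -0.22 to 0.69 for ORC4 and -0.33 to 0.49 for ORC5, so a decrease as large as that of ORC1 lies outside each of the 4 intervals. ORC3 had the most positive change of the 51, 0.54 (adjusted p = 0.137), and its untreated replicate 5 was at 2.23 FPKM where the other untreated libraries were at 5.88 to 8.62 FPKM. The signs of ORC2, ORC4 and ORC5 were negative with the GC trend removed (-0.11, -0.08 and -0.13), so no direction is given for these. The order of the levels changed with treatment: ORC6 was the highest of the 6 in untreated cells and ORC5 after dexamethasone, when ORC1 was the lowest. The untreated ranges of ORC2, ORC3 and ORC4 overlapped, as did those of ORC1 and ORC5, although ORC2 was above ORC3 in each of the 4 untreated libraries.

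Both licensing loaders fell, and geminin did not pass the test. CDT1, which brings MCM to the origin, was at 21.7, 30.8, 26.6 and 43.3 FPKM in the 4 untreated libraries and at 5.76, 11.1, 7.02 and 7.96 FPKM after dexamethasone (ENSG00000167513, chromosome 16, 88803213 to 88809258). The untreated libraries were all above the dexamethasone ones but spread widely. The log2 change was the most negative of the 51 (-1.83, SE 0.282, adjusted p = 0.00125), with the mean at 26.0% of untreated. GINS4 was lower as a share of untreated FPKM, at 24.2%. With the GC trend removed GINS4 also had the more negative log2 change (-1.74, against -1.53 for CDT1). CDC6, the ATPase that bridges origin recognition and CDT1, had 22.3, 27.7, 31.4 and 13.4 FPKM and 12.4, 9.23, 8.04 and 10.6 FPKM, with untreated replicate 5 just above the highest dexamethasone library (log2 change -1.13, SE 0.2, adjusted p = 0.0028). GMNN, which encodes geminin, was at 18.3, 21.7, 21.6 and 10.4 FPKM and 18.3, 15.6, 16.7 and 12.1 FPKM, a log2 change of -0.17 with a 95% interval of -0.56 to 0.21 (adjusted p = 0.478). With the GC trend removed GMNN passed at -0.29.

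All 7 MCM genes among the 51 fell by at least 2-fold, with groups that did not overlap. MCM7 was the most abundant of them, at 130.4, 131.1, 133.6 and 171.6 FPKM in the 4 untreated libraries and 38.7, 40.1, 44.5 and 51.5 FPKM in the dexamethasone replicates (ENSG00000166508, chromosome 7, 100092728 to 100101940). Untreated replicate 5 was the highest of the 8 and dexamethasone replicate 5 the highest of its group (log2 change -1.69, SE 0.201, adjusted p = 0.000269). MCM5 fell from a mean of 58.9 to 17.1 FPKM (log2 change -1.75, SE 0.212, adjusted p = 0.000296) and MCM2 from 51.7 to 16.7 FPKM (log2 change -1.61, SE 0.228, adjusted p = 0.000738). MCM6 had a smaller change, from 36.9, 41.1, 42.2 and 28.4 FPKM to 17.7, 17.3, 19.3 and 16.4 FPKM (log2 change -1.04, SE 0.107, adjusted p = 0.000105), with MCM3 at -1.05 and MCM4 at -1.07 close to it. The 6 subunits occupy 1 place each in the helicase ring, yet their levels spanned 3.82-fold in untreated cells, from MCM6 to MCM7, and 2.62-fold after dexamethasone, from MCM2 to MCM7. MCM10, a separate factor that helps to activate the loaded helicase, had lower levels than the ring, 11, 13.3, 14.1 and 6.86 FPKM against 4.35, 3.51, 3.71 and 2.69 FPKM (log2 change -1.42, SE 0.163, adjusted p = 0.000226). MCM8 and MCM9, counted with origin firing and fork protection, did not pass (log2 change -0.49 and -0.22, limma adjusted p = 0.155 and 0.269). Both passed with the GC trend removed (-0.66 and -0.54).

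CDC45 and the 4 GINS genes, which turn the loaded MCM ring into a moving helicase, all fell. CDC45 was at 16.5, 17.2, 18.5 and 17.6 FPKM in the 4 untreated libraries and 6.15, 4.86, 5.7 and 5.42 FPKM after dexamethasone (ENSG00000093009, chromosome 22, 19479459 to 19520612). Its groups were separated by far more than the spread of either (log2 change -1.52, SE 0.131, adjusted p = 3.35e-05). GINS1 was at 33.7 ± 4.95 and 11.7 ± 1.21 FPKM as mean ± SD of n = 4 (log2 change -1.47, SE 0.111, adjusted p = 1.47e-05), GINS2 changed by -1.57 and GINS3 by -1.29. GINS4 had the second most negative change of the 51, -1.77, from uneven libraries of 20, 10, 18.9 and 10 FPKM untreated to 3.06, 5.26, 2.7 and 3.25 FPKM (SE 0.246, adjusted p = 0.000686). Untreated replicates 3 and 5 of GINS4 were well below replicates 1 and 4, and still above every dexamethasone library. Levels of the 4 GINS genes, which share 1 complex, spanned 2.39-fold before and 3.28-fold after dexamethasone.

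PCNA, the sliding clamp, had the highest level of the 51 in both groups. It was at 200.1, 225.4, 225.7 and 125.0 FPKM in the 4 untreated libraries and at 83.4, 94.0, 109.7 and 79.8 FPKM in the dexamethasone replicates (ENSG00000132646, chromosome 20, 5114953 to 5126626). Untreated replicate 5 was well below its group but still above every dexamethasone library (log2 change -1.07, SE 0.157, adjusted p = 0.000906). Of the clamp loader, RFC5 had the largest decrease, from 29.5, 30.1, 25.3 and 24.4 FPKM to 8.75, 9.56, 8.91 and 8.73 FPKM (log2 change -1.52, SE 0.115, adjusted p = 1.54e-05). RFC4 changed by -0.97 (adjusted p = 0.00544) and RFC3 by -0.93 (adjusted p = 0.0136), both small subunits of the loader. RFC1, the large subunit specific to the PCNA loader, did not pass the test: it was at 5.74, 7.06, 7.24 and 2.38 FPKM and 6.36, 4.86, 5.86 and 3.8 FPKM, a log2 change of -0.03 with a 95% interval of -0.55 to 0.49 (adjusted p = 0.929), and its sign differed when single libraries were left out. RFC2 passed narrowly with groups that overlapped after scaling, 34.2, 21.6, 25.2 and 29.3 FPKM against 10.3, 16.1, 17.1 and 19.1 FPKM (log2 change -0.81, SE 0.242, adjusted p = 0.0334). The call of RFC2 was lost without untreated replicate 1 (-0.72) or 5 (-0.69) and without dexamethasone replicate 1 (-0.61), 3 (-0.83) or 4 (-0.85), and with no filter on low values (-0.81).

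All 7 genes of polymerases alpha and epsilon among the 51 fell, by 0.61 to 1.40 on the log2 scale. POLA2, the regulatory subunit of polymerase alpha, fell from 20.6, 22.4, 19.8 and 23.3 FPKM to 7.07, 6.8, 7.78 and 9.16 FPKM (log2 change -1.40, SE 0.165, adjusted p = 0.000258). PRIM1, the catalytic primase subunit that lays RNA primers, changed by -1.05 (adjusted p = 0.000873), its partner PRIM2 by -0.62 (adjusted p = 0.00208) and the catalytic subunit POLA1 by -0.61 (adjusted p = 0.012). POLE, the catalytic subunit of the leading-strand polymerase epsilon, was at 21.7, 23.1, 22.9 and 23.9 FPKM in the 4 untreated libraries and at 10.6, 10.6, 11 and 10.9 FPKM after dexamethasone (ENSG00000177084, chromosome 12, 132623753 to 132687365). As deposited each group spanned little (log2 change -1.04, SE 0.131, adjusted p = 0.000337). POLE3, a histone-fold subunit of the same polymerase, fell from a mean of 46.2 to 27.4 FPKM (log2 change -0.75, SE 0.11, adjusted p = 0.000819). POLE4, a further subunit counted with origin firing and fork protection, had means of 41.8 and 30.0 FPKM. It did not pass (log2 change -0.49, 95% interval -1.02 to 0.03, limma adjusted p = 0.148), also not with the GC trend removed (-0.49). POLE2 passed at -0.82 (adjusted p = 0.0325), with untreated replicate 5 at 2.53 FPKM inside the dexamethasone range of 1.89 to 3.68 FPKM. The call of POLE2 was lost without untreated replicate 1 (-0.78), 3 (-0.75) or 4 (-0.70) and without dexamethasone replicate 3 (-0.76), 4 (-0.88) or 5 (-0.71), with no filter on low values (-0.82) and without scaling (-0.81). Without scaling POLA1 was at -0.60 and did not pass.

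Of the 4 genes of polymerase delta, which extends the lagging strand, 2 fell and 2 did not pass. POLD1, its catalytic subunit, was at 32.5, 34.2, 36.6 and 47.3 FPKM in the 4 untreated libraries and 15.4, 16.4, 15.6 and 18.5 FPKM after dexamethasone (ENSG00000062822, chromosome 19, 50384204 to 50418016). The groups were separate (log2 change -1.16, SE 0.198, adjusted p = 0.00229). POLD4, the smallest subunit, was at 28.9, 28.0, 25.5 and 36.3 FPKM and 28.5, 32.5, 29.2 and 28.9 FPKM, overlapping groups with nearly equal means (log2 change -0.01, 95% interval -0.42 to 0.41, adjusted p = 0.982), and its sign was positive with other scalings. POLD2, an accessory subunit, spread from 51.5 to 105.9 FPKM among untreated libraries, with replicate 5 the highest, and was at 41.2, 41.8, 49.4 and 55.3 FPKM after dexamethasone. Its log2 change of -0.51 did not pass (95% interval -1.17 to 0.15, adjusted p = 0.222). POLD3, which bridges POLD2 to PCNA, passed at -0.50 (adjusted p = 0.0286) with overlapping groups. The call of POLD3 was lost without untreated replicate 1 (-0.50), 3 (-0.43) or 4 (-0.47) and without dexamethasone replicate 3 (-0.49), 4 (-0.46) or 5 (-0.45), and without scaling (-0.48).

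All 3 lagging-strand enzymes fell, by 1.29 to 1.51 on the log2 scale. FEN1, the nuclease that removes the flap of a displaced primer, was at 59.4, 60, 65.2 and 55.8 FPKM in the 4 untreated libraries and at 23.0, 24.1, 24.7 and 25.4 FPKM after dexamethasone (ENSG00000168496, chromosome 11, 61792637 to 61797244). Each group was tight and they were far apart (log2 change -1.29, SE 0.119, adjusted p = 4.79e-05). LIG1, which seals the nicks between Okazaki fragments, fell from a mean of 33.1 to 12 FPKM (log2 change -1.41, SE 0.19, adjusted p = 0.000556). RNASEH2A, the catalytic subunit of the enzyme that cuts RNA in RNA-DNA hybrids, fell from 30.4, 29.1, 28.7 and 48.9 FPKM to 9.18, 9.47, 12 and 15.2 FPKM, with untreated replicate 5 far above the other untreated libraries (log2 change -1.51, SE 0.275, adjusted p = 0.0032).

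RPA, the trimer that coats single-stranded DNA, had the smallest median decrease (-0.50) among the machines in which every gene passed. RPA1 was at 43.9, 44.8, 45.6 and 38.9 FPKM in the 4 untreated libraries and 26.7, 31.8, 31.7 and 33.2 FPKM after dexamethasone (log2 change -0.50, SE 0.126, adjusted p = 0.0159). RPA2 changed by -0.74 (adjusted p = 0.00462) and RPA3 by -0.50 (adjusted p = 0.0137), so none of the 3 fell by 2-fold. As deposited the libraries of RPA3 overlapped (11.5 FPKM in untreated replicate 5, 13.0 FPKM in dexamethasone replicate 1), and after scaling they did not. The call of RPA1 was lost without dexamethasone replicate 1 (-0.41), and that of RPA3 without scaling (-0.49).

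All 4 enzymes of deoxynucleotide supply fell. TK1, the thymidine kinase of the salvage route, was at 114.0, 124.5, 123.0 and 184.2 FPKM in the 4 untreated libraries and at 37.8, 42.8, 43.5 and 56.1 FPKM after dexamethasone (ENSG00000167900, chromosome 17, 78174075 to 78187233). Untreated replicate 5 was the highest of the 8, and the lowest untreated library was about 2-fold above the highest dexamethasone one (log2 change -1.59, SE 0.247, adjusted p = 0.00131). TYMS, thymidylate synthase of the de novo route, fell from 88.4, 62.5, 76.8 and 74.7 FPKM to 33.7, 33.3, 37.5 and 34.5 FPKM (log2 change -1.11, SE 0.155, adjusted p = 0.000672). The ribonucleotide reductase subunits had smaller changes: RRM2, the subunit whose protein accumulates in S phase, from a mean of 52.4 to 31.1 FPKM (log2 change -0.75, SE 0.132, adjusted p = 0.00266), and RRM1, the large subunit, from 35.6, 39.9, 44.4 and 23.4 FPKM to 26.2, 25.0, 25.2 and 23.1 FPKM (log2 change -0.49, SE 0.134, adjusted p = 0.0228). The call of RRM1 was lost without untreated replicate 1 (-0.50), 3 (-0.46) or 4 (-0.42) and without dexamethasone replicate 1 (-0.49), 3 (-0.48) or 4 (-0.48), and without scaling (-0.47). RRM2B, another reductase subunit counted with the other nucleotide genes, had a positive change that did not pass (0.62, limma adjusted p = 0.199). RRM2B passed without both libraries numbered 5 (0.53) and did not with the GC trend removed (0.23).

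The factors that package new DNA fell as well. CHAF1A and CHAF1B, 2 subunits of the chaperone that deposits histones behind the fork, had close changes: CHAF1A from 19.7, 22.3, 22.0 and 17.7 FPKM to 6.95, 6.79, 7.13 and 8.28 FPKM (log2 change -1.39, SE 0.122, adjusted p = 3.69e-05), and CHAF1B from 9.94, 10.5, 11.3 and 10 FPKM to 2.96, 3.47, 3.77 and 3.83 FPKM (log2 change -1.36, SE 0.132, adjusted p = 6.9e-05). SLBP, which binds the stem-loop of histone mRNAs, had the smallest decrease of the 43 genes that passed, at 25.1 ± 2.94 and 18.5 ± 1.17 FPKM as mean ± SD of n = 4 (log2 change -0.43, SE 0.102, adjusted p = 0.0117). All 4 dexamethasone libraries of SLBP were nonetheless below the lowest untreated one.

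**Figure D3:**
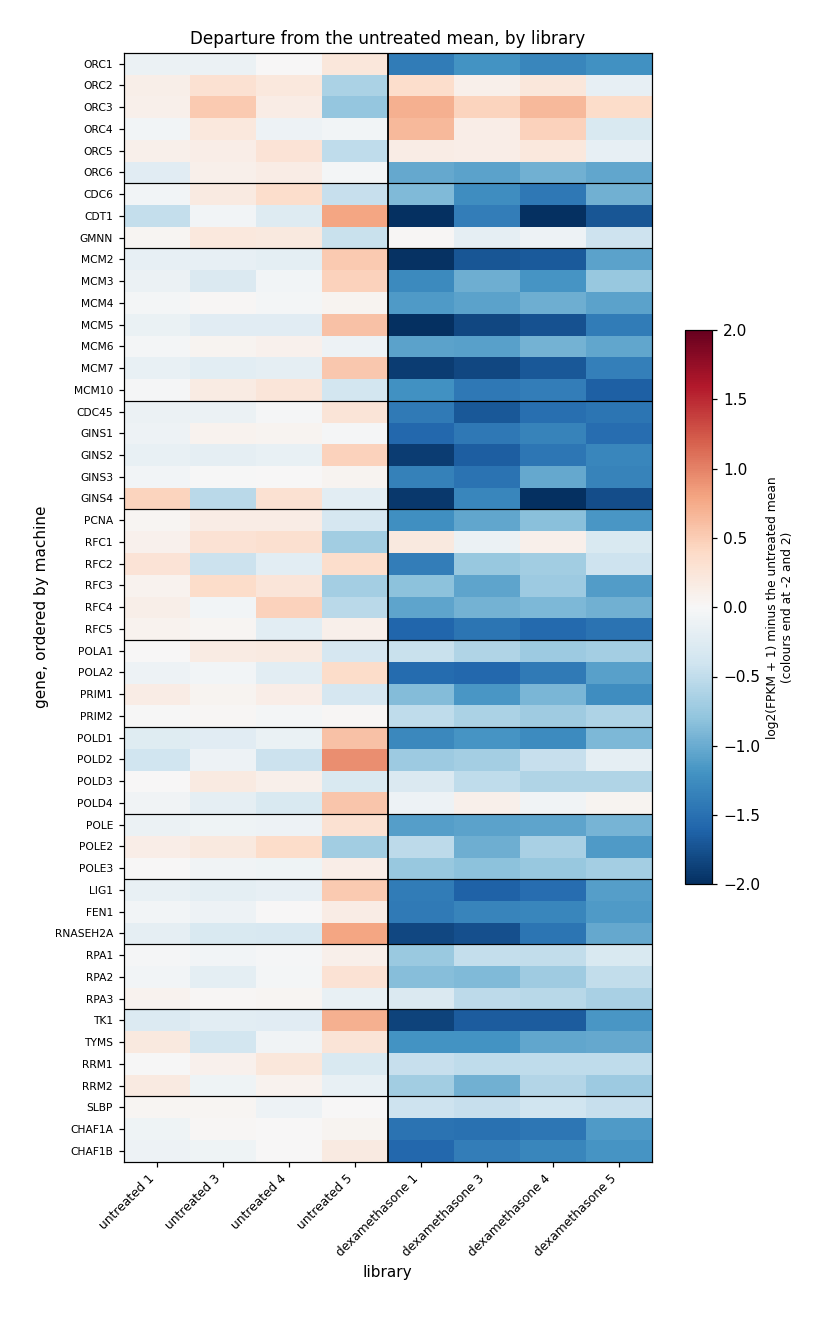
Departure of each library from the untreated mean, in log2 units after scaling, for the 51 genes (rows, grouped by machine) in 8 libraries (columns). The dexamethasone columns have medians between -1.10 and -0.96 and the untreated columns between -0.05 and 0.06, while untreated replicate 5 departs in both directions. Colours end at -2 and 2.

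Within or between neighbouring machines, 10 pairs of genes (only CDC6 against ORC2 crosses machines) were compared as the difference of their log2 values in each library, with the exact permutation test (two-sided, 4 against 4 libraries, smallest p 0.0286). In 5 pairs the first gene lost ground on the second and the libraries of the groups did not overlap: CDT1 against GMNN (-1.66), ORC1 against ORC2 (-1.40), CDC6 against ORC2 (-1.26), POLD1 against POLD4 (-1.15) and RFC3 against RFC1 (-0.90). RFC3 against RFC1 was the steadiest, at 1.01, 1.1, 0.93 and 1.02 in untreated replicates 1, 3, 4 and 5 and at 0.00, 0.07, 0.19 and 0.21 after dexamethasone. POLD1 went from above POLD4 in every untreated library (0.17, 0.28, 0.5 and 0.37) to below it in every dexamethasone library (-0.85, -0.95, -0.86 and -0.62). Each of the 5 had the smallest p this design allows, 0.0286 by the exact permutation test, and an adjusted p of 0.0571 over the 10 pairs, so 0 of 10 passed. The count was 6 with the GC trend removed (adjusted p = 0.0476 by the exact permutation test, the same 5 and GINS1 against GINS3). It was also 6 without untreated replicate 5 or without dexamethasone replicate 3. A pair can pass only if at least 6 of the 10 reach the smallest p. The change of the count therefore shows that a further pair reached it, and not a larger difference in the 5. The other 5 pairs were CHAF1B against CHAF1A (0.02, exact p = 0.829), POLE2 against POLE3 (-0.07, exact p = 0.829), GINS1 against GINS3 (-0.17, exact p = 0.114), RRM2 against RRM1 (-0.25, exact p = 0.143) and PRIM1 against PRIM2 (-0.43, exact p = 0.0857).

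**Figure D4:**
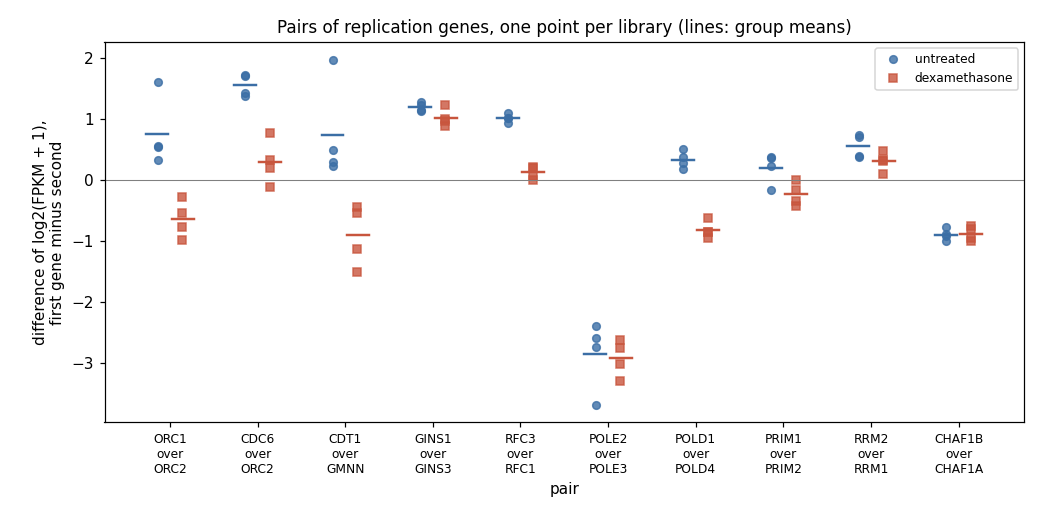
Difference of log2 values between the genes of each of the 10 pairs in every library, coloured by treatment. In the pairs CDT1 against GMNN, ORC1 against ORC2, CDC6 against ORC2, POLD1 against POLD4 and RFC3 against RFC1 the 4 dexamethasone points lie below the 4 untreated points.

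Because these genes moved together and many are textbook E2F targets, their promoters were read from RefSeq (GRCh38.p14) for 45 of the 51; no window was used for MCM4, MCM5, GINS4, POLD3, RPA2 and RPA3. Each window is 250 bases before the annotated start. For 41 of the 45 a stretch just after that start occurs in the first part of a GENCODE transcript of the gene. That checks the orientation of a window and not the position of the start. In the 6 windows below, 5′ to 3′ on the strand of the gene, capitals mark an E2F-like word (TTTCCCGC, TTTGGCGC, TTTCGCGC or TTTGCCGC on either strand, overlaps included). MCM6 is shown for its repeated words, MCM7 and CDT1 for their large decreases, PCNA as the gene with the highest level, ORC3 as the one gene with a word that did not pass the test, and ORC2 as a core subunit without a word.
MCM6: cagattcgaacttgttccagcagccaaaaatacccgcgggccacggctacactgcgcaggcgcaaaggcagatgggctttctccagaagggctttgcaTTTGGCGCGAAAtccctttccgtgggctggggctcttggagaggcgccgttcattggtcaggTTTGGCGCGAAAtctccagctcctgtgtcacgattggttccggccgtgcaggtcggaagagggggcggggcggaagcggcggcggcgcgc
MCM7: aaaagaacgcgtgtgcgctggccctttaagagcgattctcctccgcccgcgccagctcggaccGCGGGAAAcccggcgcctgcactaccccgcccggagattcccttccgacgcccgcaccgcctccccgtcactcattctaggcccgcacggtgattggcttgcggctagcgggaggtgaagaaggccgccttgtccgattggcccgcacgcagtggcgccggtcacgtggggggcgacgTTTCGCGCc
PCNA: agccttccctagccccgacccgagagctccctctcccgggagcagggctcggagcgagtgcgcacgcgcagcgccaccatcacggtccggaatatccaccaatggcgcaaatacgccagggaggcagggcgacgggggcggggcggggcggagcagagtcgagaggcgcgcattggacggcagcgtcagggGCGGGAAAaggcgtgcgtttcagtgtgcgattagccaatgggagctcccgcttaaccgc
CDT1: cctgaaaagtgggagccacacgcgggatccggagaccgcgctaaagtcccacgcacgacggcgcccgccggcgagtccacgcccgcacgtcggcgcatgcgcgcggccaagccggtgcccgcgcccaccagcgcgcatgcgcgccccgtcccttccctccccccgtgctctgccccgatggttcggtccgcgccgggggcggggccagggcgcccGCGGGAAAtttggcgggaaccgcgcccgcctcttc
ORC3: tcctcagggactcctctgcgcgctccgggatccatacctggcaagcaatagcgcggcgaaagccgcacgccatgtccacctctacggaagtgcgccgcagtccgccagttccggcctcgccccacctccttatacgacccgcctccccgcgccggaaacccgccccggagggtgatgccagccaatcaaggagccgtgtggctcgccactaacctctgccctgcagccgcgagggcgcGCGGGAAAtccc
ORC2: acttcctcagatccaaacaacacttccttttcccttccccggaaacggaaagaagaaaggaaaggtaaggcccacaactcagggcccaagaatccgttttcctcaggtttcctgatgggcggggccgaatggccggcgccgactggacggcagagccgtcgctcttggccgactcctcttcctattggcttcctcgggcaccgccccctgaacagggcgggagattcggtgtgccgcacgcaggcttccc

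The MCM6 window (chr2:135876444-135876693, minus strand) holds 4 words that overlap in 2 copies of a longer stretch. The MCM7 window (chr7:100101398-100101647, minus strand) holds 2 words, and those of PCNA (chr20:5126623-5126872, minus strand), CDT1 (chr16:88803539-88803788, plus strand) and ORC3 (chr6:87589885-87590134, plus strand) hold 1 each, while that of ORC2 (chr2:200963661-200963910, minus strand) holds 0. At least 1 E2F-like word was present in 13 of the 45 windows (28.9%), where 2.79% of 27305 promoters of the same length and 4.56% of the 9615 promoters of genes tested held one. By result, 12 of 37 windows of genes that fell (32.4%) and 1 of 8 of genes that did not pass (12.5%) held a word. A CCAAT word (both strands) was in 25 of 45 (55.6%) beside 33.0% of all promoters and 35% of those of genes tested, and in 5 of the 8 genes that did not pass. The cell-cycle homology words TTTGAA and TTCGAA were in 2 of 45 (4.44%) beside 14.6% and 9.2%, and the full palindromic glucocorticoid response element (exact match, both strands) in 0 of 45, where it was in 0.00366% of all promoters. A match describes the letters of a window and is no evidence of binding, and most of the genes that fell had none of the E2F-like words in these windows. The words were matched exactly in windows that end at the annotated start. Variants of a word and sites beyond the start were therefore not counted, and a window without a word may still hold a site.

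Across the 51 genes the size of the decrease went with base composition and with level. The log2 change correlated with GC content at Pearson r -0.52 and Spearman rho -0.54 (n = 51 genes, which share libraries and are not independent), beside r -0.34 and rho -0.44 over 12130 genes tested. With a smooth GC trend removed from each library the same correlation was -0.25 and -0.28. The 8 genes that did not pass had a median GC content of 41.4%, the 51 a median of 46.9% and all genes tested 48.2%. The change also correlated with the untreated log2 level at r -0.46 and rho -0.39, a value that shares the untreated libraries with the change. The pseudocount of 1 also makes the log2 changes of low genes smaller, and its part in this correlation was not tested. The libraries numbered 5 departed from the others by GC content: in untreated replicate 5, 31 of the 51 genes were below the other 3 libraries (median GC 43.6%) and 14 above them (57.5%), and in dexamethasone replicate 5, 23 were below (43.3%) and 17 above (56.6%). The count of genes that fell was 44 with the GC trend removed (beside 18.6% of all genes) and 43 without both libraries numbered 5 (beside 23.2%), with medians of -1.06 and -1.05. The part of base composition in the size of single changes was not tested.

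**Figure D5:**
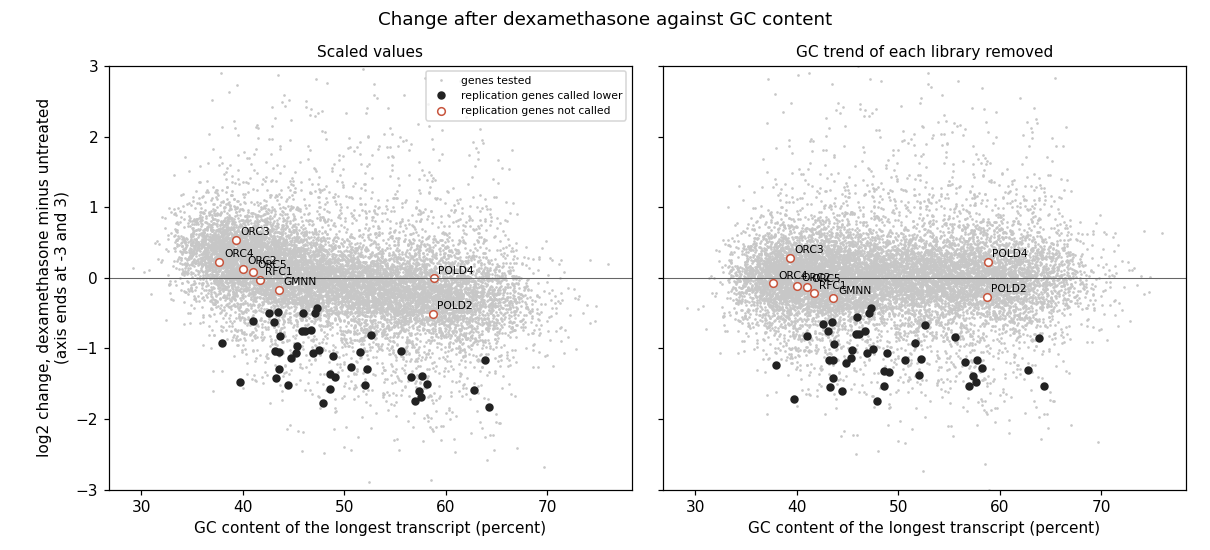
Log2 change of the 51 genes against the GC content of their transcripts (percent), as measured and with the GC trend removed, with genes that passed the test filled, over the other genes tested in grey. The correlation is stronger as measured (r -0.52) than with the trend removed (r -0.25), and ORC2 to ORC5 sit at the low-GC end.

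Of 24 genes of origin firing and fork protection 12 fell and 0 rose (50.0% lower beside 15.3% of all genes tested), and 21 fell with the GC trend removed (beside 18.6%). TICRR, which helps to load CDC45, was at 13.6, 13.2, 12.9 and 10.2 FPKM in the 4 untreated libraries and at 3.91, 3.94, 4.47 and 3.79 FPKM after dexamethasone (log2 change -1.43, SE 0.107, adjusted p = 1.42e-05). UHRF1, which guides maintenance methylation to new DNA, changed by -1.23 (adjusted p = 0.000144), and RFWD3, a ubiquitin ligase that acts on RPA at stalled forks, by -1.05 (adjusted p = 8.3e-05). Of 24 genes of the E2F, RB and S-phase cyclin axis 11 fell and 1 rose (45.8% lower, where 15.3% of all genes tested fell and 11.9% rose). E2F1, an activator of replication genes, fell from 24.5, 24.8, 25.2 and 31.2 FPKM to 7.27, 7.13, 7.74 and 8.48 FPKM (log2 change -1.68, SE 0.173, adjusted p = 0.000117), E2F2 changed by -1.49 (adjusted p = 7.1e-05), and CDC25A, the phosphatase that activates CDK2, by -1.61 (adjusted p = 1.47e-05). RB1, the repressor of E2F, was at 0.50 (adjusted p = 0.14) and CCNE2, a cyclin partner of CDK2, at -0.26 (adjusted p = 0.268), and neither passed. CCNE2 did pass with the GC trend removed (-0.59), without untreated replicate 5 (-0.41) and without both libraries numbered 5 (-0.36), and RB1 without both libraries numbered 5 (0.44). TFDP2, a dimer partner of E2F proteins, was the gene that rose (0.75, adjusted p = 0.00968; chosen after its values were seen). The count of 11 was 7 without any one of untreated replicates 1, 3 and 4 or dexamethasone replicates 1 and 5.

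Of 25 other genes of nucleotide synthesis 6 fell and 1 rose (24.0% lower, where 15.3% of all genes tested fell and 11.9% rose), and 12 fell with the GC trend removed (beside 18.6%). DTYMK, the kinase after TYMS and TK1, was at 79.5, 80.6, 77.3 and 100 FPKM in the 4 untreated libraries and at 40.8, 41.2, 44.3 and 51.4 FPKM after dexamethasone (log2 change -0.93, SE 0.189, adjusted p = 0.00577). CTPS1, CTP synthase, changed by -0.92 (adjusted p = 0.000527). SHMT1, a serine hydroxymethyltransferase, was the gene that rose (0.62, adjusted p = 0.0292; chosen after its values were seen), and it did not pass without untreated replicate 1 (0.58), 3 (0.57) or 4 (0.57) or without dexamethasone replicate 3 (0.62), 4 (0.67) or 5 (0.53). The count of 6 was 9 without untreated replicate 5. It was 4 without dexamethasone replicate 1, 3 or 4. Reads of genes that overlap cannot always be told apart, since the use of strand in counting is not stated: 7 of the 51 overlap a protein-coding gene on the same strand (FEN1 with FADS2, PRIM1 with NACA, RNASEH2A with THSD8 and CHAF1B with MORC3 among them), 17 overlap one on the opposite strand (TYMS with ENOSF1, MCM7 with AP4M1), and 10 have a pseudogene by name, PCNA and RRM2 among them.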

How the data were processed

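RNA was measured in 8 libraries of A549 cells, grouped by the labelled treatment (4 untreated, 4 dexamethasone). Per the submitters' processing notes the tools were FastQC 0.11.9, cutadapt 3.4, STAR 2.7.9a, featureCounts of Subread 2.0.3 and DESeq2 1.32.0, with GRCh38. The deposited values are called counts in the labels but are not whole numbers, and they were read as FPKM because of their sums and low-value steps. The step by which the authors made FPKM, the annotation and the use of strand are not given in the sources used here. Between 45.2% and 50.0% of the low values of a library came within 0.1 of a whole fragment (20% by chance), too few to recover reads, so a count model was not used.

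A trimmed mean of M values set the scale of each library (trimming 0.3 of M and 0.05 of A). The 12161 genes that reached 0.5 FPKM in 4 or more libraries entered a limma 3.58.1 fit of log2(FPKM + 1) in R 4.3.3 (lmFit, eBayes with trend and robust), with treatment as the only term. Tests were two-sided, Benjamini-Hochberg adjusted over all genes tested, and called at 0.05. The pseudocount of 1 makes the log2 change of low genes smaller than the ratio of their FPKM. FPKM are printed as deposited, while log2 changes and overlaps of groups are after scaling. The fit was tested on simulated data. GC content, strand and overlaps come from GENCODE v44, and coordinates are as the files give them (GRCh38). The genes and lists were chosen with earlier results of these data known. All 51 genes could be named. POLE4, MCM8, MCM9 and RRM2B of the other lists are named beside them as further subunits or family members, chosen after their values were seen. From each other list the 3 with the smallest p were named, with E2F1, RB1 and CCNE2, and FKBP5 and TSC22D3 as a check of labels; 1 gene that this rule picks is not reported here. Alternatives were another pseudocount, other filters and scalings, plain eBayes, removal of a GC trend, a replicate block, and leaving out libraries.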

Additional observations from a re-analysis of the deposited data

Results flagged for a closer look

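For the named genes other than POLE4, MCM8, MCM9 and RRM2B, 144 groups of 4 libraries were examined for a library far from the other 3. Of these, 18 had one, where chance gives about 1 in 20 (7 groups), and 16 of the 18 were untreated replicate 5. Levels were above the other untreated libraries for MCM2 (61.9 FPKM against 47.4 to 49.2), MCM5 (73.5 against 53.4 to 55.1), MCM7 (171.6 against 130.4 to 133.6), GINS2 (28.5 against 22.7 to 23.6), LIG1 (39.6 against 30.4 to 31.7), RNASEH2A (48.9 against 28.7 to 30.4) and TK1 (184.2 against 114.0 to 124.5). Outside the 51 genes the same held for E2F1 (31.2 FPKM against 24.5 to 25.2), DTYMK (100 against 77.3 to 80.6), POLRMT (39.3 against 27.3 to 28.0) and SHMT1 (60.3 against 49.9 to 51). Levels were below the others for PRIM1 (8.99 FPKM against 15.5 to 16.4), RPA3 (11.5 against 16.7 to 17.0), RFWD3 (21.8 against 30.4 to 31.8), POLI (0.408 against 1.86 to 2.06) and CCNE2 (0.485 against 1.39 to 1.56). In the dexamethasone group POLD4 was at 32.5 FPKM in replicate 3 against 28.5 to 29.2 in the others, and POLRMT at 20.9 FPKM in replicate 5 against 15.5 to 16.4. What set untreated replicate 5 apart was not tested.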

How the results depend on the processing

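Of the 43 genes that fell, 36 passed in all 19 alternatives and 0 changed direction; the other 7 (POLA1, POLD3, POLE2, RFC2, RPA1, RPA3 and RRM1) lost the call in 1 to 8. The count of 43 was 38 without scaling, 45 without both libraries numbered 5 and with the GC trend removed, and 39 to 42 without single libraries. The count of 0 that rose was 1 with a replicate block (ORC3) and 1 without both libraries numbered 5 and with the GC trend removed (POLD4, 0.35). Over all genes, 3310 calls (1862 lower, 1448 higher) became 5776 with the replicate block (2979, 2797), 5340 with the block and the GC trend removed (2668 higher), 5513 without both libraries numbered 5 (2835, 2678) and 5265 without them and the GC trend (2594 higher), with 2194 higher when the GC trend alone was removed. Without single libraries they were 2362 to 3905 (1322 to 2157 lower, 1020 to 1748 higher). Over the other lists the 33 lower calls were 55 with the GC trend removed, 57 with the block too, 53 without the libraries numbered 5 and the trend, and 22 to 44 without single libraries; the 4 higher were 7, 10 and 7 in those settings, 12 with the block, 11 without the libraries numbered 5, and 3 to 5. The 0 pairs that passed were 6 with the GC trend removed and 0 to 6 without single libraries. Same-numbered libraries correlated in their deviations at 0.291, 0.065, 0.314 and 0.713, not all above 0.1, and untreated replicates 3 and 4 correlated best with dexamethasone replicate 1, so the numbers were not taken to pair the wells. Signs that changed, all of genes or pairs that did not pass, were ORC2 (-0.11 with the GC trend removed and also with the block, -0.17 without the libraries numbered 5 too, -0.08 to 0.24 without single libraries), ORC4 (-0.08, with and without the block), ORC5 (-0.13 in both, -0.17, and -0.09 to 0.17), RFC1 (-0.26 to 0.07), POLD4 (0.01 without scaling, 0.03 with median ratios, 0.23 with the GC trend removed, with or without the block, 0.17 without the libraries numbered 5, and -0.11 to 0.18), POLE2 against POLE3 (-0.34 to 0.08) and CHAF1B against CHAF1A (-0.08 with a pseudocount of 0.1, -0.16 with the GC trend removed, and -0.02 to 0.06). The cause was not tested. Depth is known only as an estimate from low-value steps, and no counting interval was computed.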

Other observations

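Of 14 genes of mitochondrial DNA replication 3 fell and 0 rose, 21.4% beside 15.3% of all genes tested, with a median log2 change of -0.12. POLRMT, the mitochondrial RNA polymerase that also primes replication, had a log2 change of -0.81 (adjusted p = 0.0212) by limma, MGME1, a mitochondrial exonuclease, -0.58 (adjusted p = 0.0273), and LIG3, the mitochondrial ligase, -0.44 (adjusted p = 0.0197). The count of 3 was 0 without dexamethasone replicate 1 or 4, 1 without dexamethasone replicate 3, and 2 without untreated replicate 1 or 4 or without scaling. It was 5 with the GC trend removed (beside 18.6% of all genes) and 4 without both libraries numbered 5 (beside 23.2%).

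Of 12 translesion and gap-filling polymerase genes tested, of 13 listed, 1 fell (8.33%) and 2 rose, where 15.3% of all genes tested fell and 11.9% rose. POLI, which inserts bases opposite damage, was at 1.86, 2.05, 2.06 and 0.408 FPKM in the 4 untreated libraries and at 4.56, 3.26, 4.18 and 2.84 FPKM after dexamethasone (log2 change 0.92, limma adjusted p = 0.0149). REV3L, the catalytic subunit of polymerase zeta, was at 1.3, 1.76, 1.8 and 1.15 FPKM and 4.24, 2.96, 4.33 and 2.06 FPKM (log2 change 0.77, limma adjusted p = 0.00859). The libraries of each group did not overlap for either. POLQ, the polymerase of theta-mediated end joining, fell (-0.61, limma adjusted p = 0.0222), and its call was lost without untreated replicate 1 (-0.59), 3 (-0.54) or 4 (-0.53) or without dexamethasone replicate 1 (-0.58) or 3 (-0.57), and without scaling (-0.60).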
